A study of Mus musculus with 8 samples.

Results

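The respiratory chain of AML410, a mouse acute myeloid leukaemia, was described here through the RNA counts of 101 protein-coding genes, out of 12830 genes in the deposited tables. The genes were chosen by name and by chromosome, not by any measured value. Taken were all genes whose symbol begins with Ndufa, Ndufb, Ndufc, Ndufs, Ndufv, Sdh, Uqcr, Cox4 to Cox8 or Atp5, together with Cyc1, Cycs and the protein-coding genes of the mitochondrial chromosome, while Ndufaf assembly factors and 5 pseudogene entries were left out. The rule finds 107 genes in the RefSeq annotation, of which Cox4i2, Cox7a1, Cox7b2, Cox8c, Ndufa4l2 and Uqcr11 were not analysed here. Of the 101, 88 are nuclear and 13 lie on mitochondrial DNA (mtDNA). The nuclear genes comprise 40 of complex I, 4 of complex II, 4 assembly factors of complex II, 8 of complex III with Cyc1, 14 of complex IV, 17 of complex V and Cycs, and the mtDNA genes 7 of complex I, 1 of complex III, 3 of complex IV and 2 of complex V. The filter on low counts kept 100 of them (87 nuclear) for testing and removed Cox8b.

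AML410 cells have a monosomal karyotype, are p53-/- and carry a short hairpin RNA against PU.1 (shPU.1) that is linked to green fluorescent protein (GFP), and every group shares this background in C57BL/6 recipients. Doxycycline (Dox), given to the leukaemic mice, shuts the hairpin off so that PU.1, a transcription factor of myeloid development encoded by Spi1, returns. GFP-positive bone marrow cells were sorted as GFPhigh from mice without Dox, as GFPhigh-mid after 2 days, as GFPmid after 4 days and as GFPlow after 6 days, with 2 libraries per group, so day and gate cannot be told apart. All libraries come from the same named leukaemia. The titles call the 2 libraries of a group technical replicates and the series design speaks of duplicate mice, so p-values measure no more than the spread of these libraries, which may be technical. In bulk RNA, fewer cells of a type and less RNA per cell cannot be told apart.

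The respiratory chain sits in the inner mitochondrial membrane. Complex I (NADH dehydrogenase) and complex II (succinate dehydrogenase) pass electrons to ubiquinone, complex III passes them to cytochrome c, and complex IV (cytochrome c oxidase) reduces oxygen. The proton gradient built on the way drives complex V, the ATP synthase. Most subunits are encoded in the nucleus and imported, whereas a small set of hydrophobic subunits of complexes I, III, IV and V is encoded and made inside the mitochondrion, and complex II is wholly nuclear. Nuclear respiratory factor 1 (NRF1) and the ETS family factor GABP, also called NRF2, are classical regulators of the nuclear genes. Leukaemic blasts are widely described as relying on oxidative phosphorylation.

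Total counts ran from 9262047 to 11213292 per library. Spi1 checked the labels: it stood at 8.34 and 12.9 CPM (counts scaled to a common library size) in untreated libraries, 14.8 and 15.6 at day 2, 94.0 and 103 at day 4, and 217 and 229 at day 6. Trp53, which encodes p53, had 65.0 and 62.7 CPM in untreated libraries and 42.8 and 41.1 at day 6; counts per gene do not show which exons the reads came from, so they do not check the p53-/- label. CPM values were scaled by the TMM method throughout, and a gene was called when its adjusted p in edgeR's quasi-likelihood test was under 0.05 over all 12330 genes tested. Day 2 replicate 1 stood apart in its mitochondrial ribosomal RNA, which made up 0.3163% of its counts against 0.0533% to 0.0942% in the other libraries. Among markers of other cells, 6 of 11 erythroid genes were in the tables, with summed levels of 24.5 and 10.6 CPM in untreated, 22.9 and 7.36 at day 2, 5.99 and 9.46 at day 4, and 42.1 and 68.8 at day 6. The 9 B cell genes summed to 82.4 and 40.4, 134 and 16.9, 12.1 and 11.7, and 36.7 and 49.3 CPM in the same order. Of 8 T and NK cell genes, 3 were in the tables, at 95.5 to 218 CPM in sum, and the defining genes Cd3d, Cd3e, Cd3g, Cd4 and Cd8a were not analysed here.

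By day 6 of Dox, part of the nuclear transcripts of each complex had fallen, while those of mtDNA stood closer to their untreated level. Against untreated, 44 of 87 nuclear members fell and 6 rose, with a median log2 fold change of −0.32 beside −0.04 over all genes. Of the 13 mtDNA members, 1 fell and 1 rose, with a median of −0.08. In all, 45 of 100 members fell, beside 31.6% of all genes tested, and 7 rose, beside 32.0% (edgeR quasi-likelihood test). The falls were mostly moderate: 15 members fell by more than 1.5-fold, and 4 of them, Ndufa12, Ndufab1, Cyc1 and Cox6a2, by more than 2-fold. Of these 4, Ndufa12, Cox6a2 and Ndufab1 were scarce, with untreated means of 0.971, 2.66 and 6.67 CPM. Tested against a smallest change of 1.5-fold, 8 members were called falling and 1 rising. The shares of all genes that passed these fold limits were not counted here.

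At day 2 the members stood near their untreated level. Only Ndufb1 rose, beside 4.18% of all genes, and 0 members fell, beside 1.95% (edgeR). At an unadjusted p under 0.05 in edgeR, 4 members were higher and 1 was lower, beside 1503 and 1147 of the 12330 genes tested. DESeq2 called 1 rising and 0 falling, beside 537 and 160 of all genes. At day 4, 16 members fell, beside 22.0% of all genes, and 5 rose, beside 26.1%. All 16 falling members were nuclear, and their number ran from 8 (without day 4 replicate 2) to 25 (without untreated replicate 2); it was 9 without untreated replicate 1, 10 without day 4 replicate 1 or either day 6 replicate, and 10 with DESeq2. The number rising at day 4 was 15 without untreated replicate 1, 2 without untreated replicate 2, and 3 and 1 without replicates 1 and 2 of day 4. Over all 12330 genes tested, DESeq2 called 1962 falling and 2697 rising at day 4. Shares of all genes were not counted for the fits without a library. With scaling by total counts, 43 members fell at day 4, beside 36.7% of all genes, and 1 rose, beside 14.7%. Of the 16, 15 fell at day 6 too, and Ndufv3, an accessory subunit of complex I, fell at day 4 alone. Another 30 members fell at day 6 but were not called at day 4. These 3 comparisons share the untreated libraries.

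The order of the libraries was described without a test. Both day 6 libraries lay below all the other 6 for 47 of the 87 nuclear members and for 3 of the 13 mtDNA members, beside 26.7% of all genes. Day 6 and untreated libraries did not overlap for 57 nuclear members that were lower and 8 that were higher, beside 42.4% and 39.7% of all genes. For mtDNA members the numbers were 6 lower and 4 higher. The group means stood in falling order from untreated through day 6 for 32 of the 87 nuclear members and for 0 of the 13 mtDNA members, beside 19.1% of all genes.

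The levels depend on how libraries are scaled. Scaled by total counts alone, the median of all genes moved to −0.47 at day 6, and 86 members fell, beside 53.9% of all genes, and 1 rose, beside 16.9%. Relative to all genes, the nuclear median was −0.28 and the mtDNA median −0.04 under both scalings. As raw shares, nuclear members took 1.42% and 1.3% of the counts in untreated libraries and 0.841% and 0.816% at day 6, and mtDNA members 2.29% in both untreated libraries and 1.71% and 1.68% at day 6. For fits without a library, given next, shares of all genes were not counted. Levels also differed between the untreated libraries, where the nuclear members summed to 12405 CPM in replicate 1 and 11054 CPM in replicate 2. Without replicate 1, 33 members fell and 10 rose at day 6, and without replicate 2, 52 fell and 3 rose. The number rising at day 6 was 3 without day 6 replicate 1 and 5 without day 6 replicate 2.

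**Figure D1:**
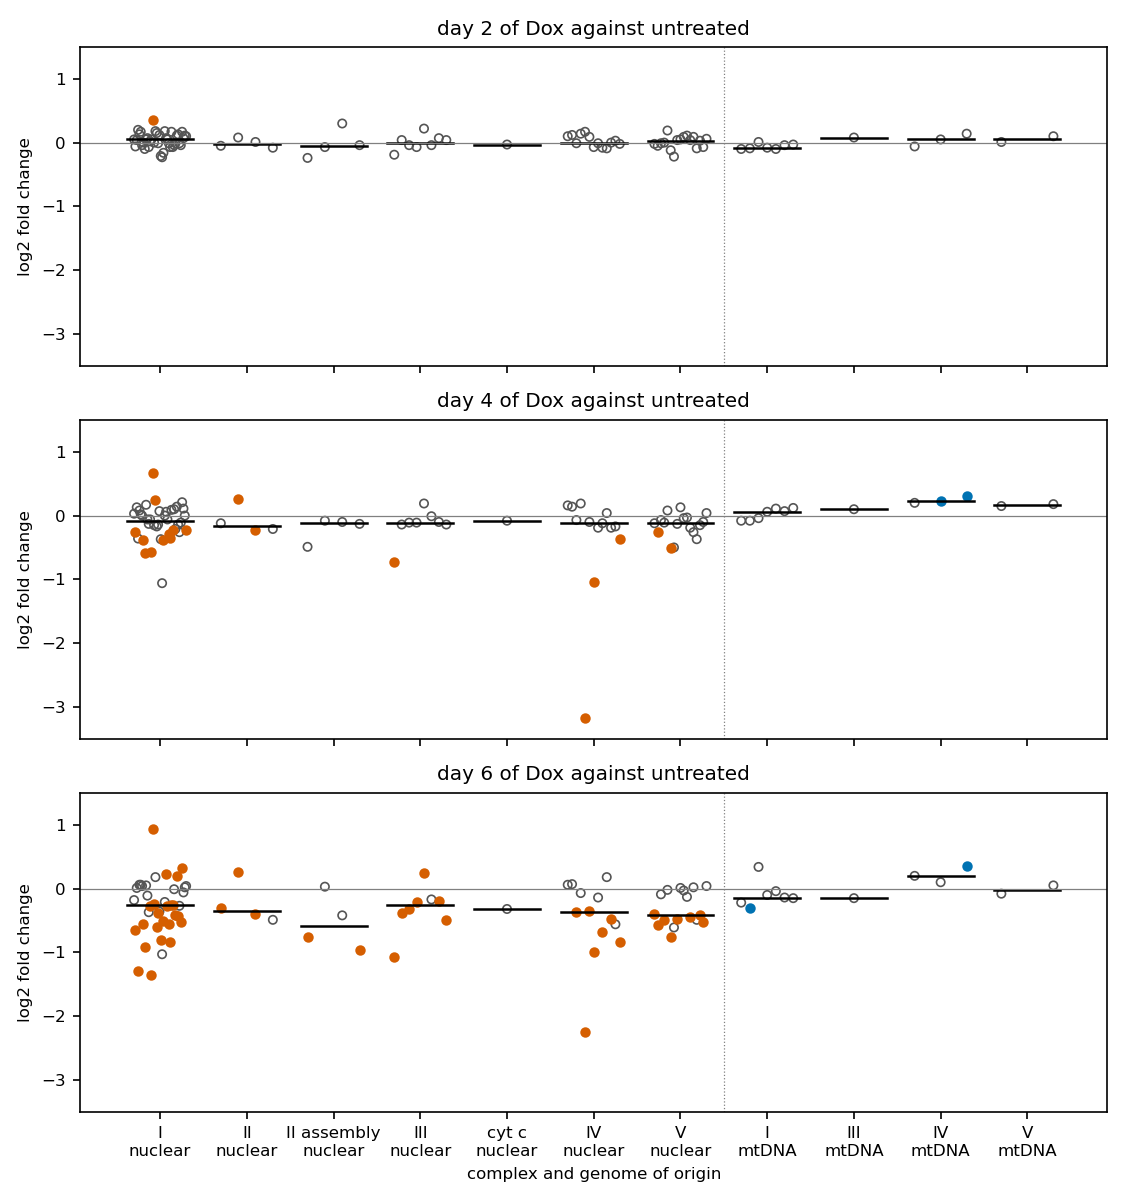
Log2 fold change against untreated (y axis) of each tested member, by complex and genome (x axis), at days 2, 4 and 6 of Dox; filled points passed edgeR's test, open points did not, and bars are medians. At day 6 the filled points lie mostly below 0 in the nuclear classes, with 44 falling and 6 rising of 87. The 13 mtDNA genes spread around 0 under TMM scaling. With scaling by total counts the rising genes other than Ndufb1 are below 0. So are all 13 mtDNA genes, from −0.74 (ND2) to −0.08 (COX3).

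Promoters are shown for 3 nuclear members whose transcripts did different things: Cox8a, a subunit of complex IV that fell, Sdhb, a subunit of complex II that rose under TMM scaling, and Cycs, which did not pass the test. Each is the RefSeq window of 250 bases before to 50 after the gene's start in GRCm38.p6, written 5′ to 3′ on the gene's strand. Capitals mark exact matches, on either strand, to the NRF1-type core GCGCATGC or the GABP-type ETS core CCGGAAG.
Cox8a (chr19:7217567-7217866, minus strand): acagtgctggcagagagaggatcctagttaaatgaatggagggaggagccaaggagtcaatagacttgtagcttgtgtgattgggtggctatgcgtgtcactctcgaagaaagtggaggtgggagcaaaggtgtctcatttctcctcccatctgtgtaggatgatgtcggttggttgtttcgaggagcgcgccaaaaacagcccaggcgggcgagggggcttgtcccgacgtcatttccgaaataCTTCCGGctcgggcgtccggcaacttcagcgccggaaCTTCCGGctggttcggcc
Sdhb (chr4:140961021-140961320, plus strand): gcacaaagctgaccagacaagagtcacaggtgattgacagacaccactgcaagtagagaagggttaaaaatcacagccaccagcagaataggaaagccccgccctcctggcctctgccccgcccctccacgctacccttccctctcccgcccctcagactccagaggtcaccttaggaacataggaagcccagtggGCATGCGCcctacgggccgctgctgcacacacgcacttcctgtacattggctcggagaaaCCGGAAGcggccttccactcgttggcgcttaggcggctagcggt
Cycs (chr6:50566520-50566819, minus strand): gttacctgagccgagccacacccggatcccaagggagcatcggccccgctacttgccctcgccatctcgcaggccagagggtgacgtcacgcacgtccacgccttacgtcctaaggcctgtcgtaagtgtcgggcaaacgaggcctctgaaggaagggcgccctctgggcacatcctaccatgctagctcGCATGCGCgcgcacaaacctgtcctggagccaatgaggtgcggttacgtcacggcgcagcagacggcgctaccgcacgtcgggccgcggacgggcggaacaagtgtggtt
Cox8a held the GABP-type core in its reverse form at 2 places, starting 5 bases before and 32 bases after the gene's start. Sdhb held the NRF1-type core 54 bases before and the GABP-type core 6 bases after its start, and Cycs the NRF1-type core 60 bases before its start.

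Over all members, 73 of the 88 nuclear genes matched a RefSeq window, with 78 windows in all, beside 32851 windows of all genes. The NRF1-type core was in 12.8% of the member windows and in 2.71% of all windows. The GABP-type core was in 24.4% and 8.86%, and the PU.1-type core GAGGAAGT in 3.85% and 3.2%. Windows with the NRF1-type core belonged to 10 genes, among them Cox6a1, Uqcrc1, Atp5k and Ndufa8, of which 2 fell, 1 rose and 7 were not called at day 6. Of 19 genes with the GABP-type core, 6 fell, 3 rose and 10 were not called. The PU.1-type core was found in the windows of Atp5j, Ndufa5 and Ndufs4, which did not pass the test, fell and rose, in that order. Among tested member genes with a window, 35 fell, 5 rose and 32 were not called. A match is a run of letters and not a measured binding site.

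Complex I, the largest class with 40 of the 87 tested nuclear members, had the largest number of falling genes and the leading rising gene. At day 6, 19 of its 40 nuclear members fell, beside 31.6% of all genes, and 4 rose, beside 32.0%. Their median log2 fold change was −0.26. At an unadjusted p under 0.05 in edgeR, 22 of the 40 were lower, beside 4149 of the 12330 genes tested. The same count was 2 of 4 in complex II, 7 of 8 in III, 8 of 13 in IV and 8 of 17 in V. Among the 7 nuclear core subunits of complex I, which carry the electron path, 3 fell (Ndufs1, Ndufs3 and Ndufs7) and 1 rose (Ndufs8). Their median was −0.06. Among the 33 accessory subunits, 16 fell and 3 rose, with a median of −0.28. No test compared core with accessory subunits.

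Ndufa5, an accessory subunit of the matrix arm (gene 68202, chromosome 6, 24518662 to 24527690), stood at 54.9 and 51.8 CPM in untreated libraries, 50 and 49.6 at day 2, 36.1 and 35.0 at day 4, and 29.4 and 26.9 at day 6. Its groups did not overlap and stepped down at each time. It fell by 0.58 on the log2 scale at day 4 (SE 0.09, adjusted p = 0.00019 in edgeR) and by 0.92 at day 6 (SE 0.09, adjusted p = 3.82e-06 in edgeR). Ndufab1, the mitochondrial acyl carrier protein, which serves both complex I and fatty acid synthesis (gene 70316, chromosome 7, 122086815 to 122101848), was scarce, at 6.30 and 7.04 CPM in untreated libraries, 6.80 and 7 at day 2, 4.90 and 4.10 at day 4, and 2.70 and 2.49 at day 6. Untreated and day 2 libraries lay together, above day 4 and day 6. Its fall at day 6 was 1.36 (SE 0.23, adjusted p = 0.000313 in edgeR), and its fall of 0.57 at day 4 (adjusted p = 0.042 in edgeR) was lost when any 1 untreated, day 4 or day 6 library was left out, with log2 fold changes of −0.70 to −0.45.

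Ndufa4 had the highest level per length among the nuclear members named for complex I, at 512 CPM per kilobase in untreated cells, and its product has since been assigned to complex IV. It stood at 263 and 241 CPM in untreated, 254 and 249 at day 2, 199 and 185 at day 4, and 171 and 173 at day 6 (gene 17992, chromosome 6, 11900372 to 11907450). Day 2 lay within the untreated range, and day 4 and day 6 lay below it. The gene fell by 0.39 at day 4 (SE 0.07, adjusted p = 0.00112 in edgeR) and by 0.55 at day 6 (SE 0.07, adjusted p = 5.86e-05 in edgeR).

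Ndufb1, a small accessory subunit of the membrane arm (chromosome 12, 101968096 to 101975738), moved the other way. It stood at 71.1 and 60.2 CPM in untreated libraries, 79.9 and 87.2 at day 2, 103 and 105 at day 4, and 125 and 127 at day 6, with no overlap between any of the groups. It rose by 0.67 at day 4 (SE 0.09, adjusted p = 9.44e-05 in edgeR) and by 0.94 at day 6 (SE 0.09, adjusted p = 3.22e-06 in edgeR), and remained higher with scaling by total counts (0.51). The rise of 0.35 at day 2 (adjusted p = 0.046 in edgeR) was lost when any 1 library other than untreated replicate 1 was left out, with log2 fold changes of 0.24 to 0.41. Its identifier in the tables, 100040297, matched only as an earlier identifier of the present gene, so its gene model may differ from the present annotation.

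Another 3 complex I genes went against the majority at day 6, each by a small amount whose sign depends on the scaling. Ndufs8, a core subunit that holds iron-sulfur clusters (gene 225887, chromosome 19, 3908863 to 3912774), rose from an untreated mean of 59.6 ± 4.89 CPM to 74.6 ± 5.99 (SD, n = 2), a log2 fold change of 0.32 (SE 0.09, adjusted p = 0.00827 in edgeR), but was at −0.11 with scaling by total counts. Ndufb7 (gene 66916), an accessory subunit, rose from 103 ± 7.87 to 121 ± 7.95 CPM (log2 fold change 0.23, adjusted p = 0.0321 in edgeR) and was at −0.20 with total counts. Ndufs4 (gene 17993), an accessory subunit whose loss causes a mouse model of Leigh syndrome, rose from 103 ± 6.13 to 118 ± 0.156 CPM (log2 fold change 0.20, adjusted p = 0.0359 in edgeR) and was at −0.24 with total counts. The call was lost without day 6 replicate 1 for Ndufs8 (0.24) and Ndufs4 (0.19), without day 6 replicate 2 for Ndufb7 (0.17) and Ndufs4 (0.20), and without untreated replicate 2 for Ndufb7 (0.16) and Ndufs4 (0.14). The accessory subunit gene Ndufb11 rose at day 4 (log2 fold change 0.25, adjusted p = 0.0218 in edgeR) and was at 0.18 at day 6 (adjusted p = 0.066 in edgeR; −0.25 with total counts).

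Some complex I counts are uncertain because near-identical copies may share reads. The pseudogene Ndufs5-ps held 450 and 383 counts in untreated libraries and 247 and 235 at day 6, more than Ndufs5 itself, which held 303 in untreated replicate 1. Ndufb4, Ndufb4b and Ndufb4c are copies of the same subunit gene, at 1.73 to 3.32 CPM across untreated and day 6 libraries for Ndufb4b, which fell (log2 fold change −0.81, adjusted p = 0.0491 in edgeR). Ndufa12 fell by 1.3 at day 6 but lay near 1 CPM in untreated libraries (0.851 and 1.09).

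Complex II, which also works in the tricarboxylic acid cycle, had subunits that moved in opposite directions. Sdha, the flavoprotein that oxidises succinate (gene 66945, chromosome 13, 74322255 to 74350240), stood at 347 and 326 CPM in untreated libraries, 322 and 328 at day 2, 316 and 302 at day 4, and 269 and 274 at day 6, lowest at day 6. It fell by 0.31 at day 6 (SE 0.07, adjusted p = 0.00236 in edgeR). Sdhc, a membrane anchor that binds ubiquinone (gene 66052, chromosome 1, 171129157 to 171150640), had the highest level per length of the 4 subunits, at 132 CPM per kilobase, and stood at 156 ± 12.4 CPM in untreated, 156 ± 2.99 at day 2, 133 ± 0.642 at day 4 and 118 ± 3.88 at day 6 (SD, n = 2). Every day 4 and day 6 library lay below every earlier one. It fell by 0.40 at day 6 (SE 0.08, adjusted p = 0.000749 in edgeR). The fall of 0.22 at day 4 (adjusted p = 0.0323 in edgeR) was lost without untreated replicate 1 (−0.13) and without any 1 of the day 4 and day 6 libraries.

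Sdhb, the iron-sulfur subunit between them (gene 67680, chromosome 4, 140961271 to 140979198), stood at 117 and 104 CPM in untreated, 114 and 119 at day 2, 129 and 136 at day 4, and 135 and 129 at day 6. Day 4 and day 6 libraries lay above all untreated and day 2 libraries. The gene rose by 0.26 at day 4 (SE 0.08, adjusted p = 0.0189 in edgeR) and by 0.26 at day 6 (SE 0.08, adjusted p = 0.0144 in edgeR), but was at 0.01 and −0.18 with scaling by total counts. Neither rise was called without untreated replicate 2 (0.18 at both days), the day 4 rise was not called without day 4 replicate 2 (0.21), and the day 6 rise was not called without day 6 replicate 1 (0.22). The ratio of Sdhb to Sdha counts, which no scaling of libraries alters, was 0.337 and 0.320 in untreated libraries and 0.501 and 0.471 at day 6. Sdhd, the other membrane anchor, was scarce, and its log2 fold change of −0.49 at day 6 did not pass the test (adjusted p = 0.0776 in edgeR).

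Of the 4 complex II assembly factors, Sdhaf1 and Sdhaf4 fell at day 6. Sdhaf4, which helps the flavinylated Sdha join the complex (gene 68002, chromosome 1, 23995939 to 24005640), stood at 14.6 and 12.2 CPM in untreated, 12.3 and 13.6 at day 2, 11.7 and 12.7 at day 4, and 6.87 and 6.81 at day 6. The first 6 libraries lay together and the day 6 libraries well below them (log2 fold change −0.96 with SE 0.16, adjusted p = 0.000277 in edgeR). Sdhaf1, which helps insert iron-sulfur clusters into Sdhb, fell by 0.76 (SE 0.20, adjusted p = 0.0058 in edgeR). Sdhaf2 and Sdhaf3 did not pass the test, with log2 fold changes of 0.03 (−0.41 with total counts) and −0.42.

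Complex III held the steepest fall among well-expressed members. Cyc1, the haem-bearing cytochrome c1 that hands electrons to cytochrome c (gene 66445, chromosome 15, 76343513 to 76346260), stood at 406 and 381 CPM in untreated libraries, 354 and 334 at day 2, 248 and 225 at day 4, and 185 and 186 at day 6. Every later group lay below every earlier one. The fall was 0.73 at day 4 (SE 0.08, adjusted p = 1.21e-05 in edgeR) and 1.08 at day 6 (SE 0.08, adjusted p = 2.87e-07 in edgeR), and the log2 fold change of −0.19 at day 2 did not pass the test (adjusted p = 0.167 in edgeR). Cyc1 had the highest level per length of the complex's nuclear members in untreated cells, at 329 CPM per kilobase. At day 6, at 155 CPM per kilobase, it lay under Uqcrh at 246 and Uqcrq at 159.7.

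Of the other 7 nuclear members of complex III, 5 fell at day 6, by 0.20 (Uqcrh) to 0.50 (Uqcrq), beside 31.6% of all genes. The Rieske iron-sulfur protein gene Uqcrfs1 did not pass the test (log2 fold change −0.17, adjusted p = 0.063 in edgeR). Uqcrc2, a core protein of the matrix side (gene 67003, chromosome 7, 120635189 to 120659523), stood at 193 and 171 CPM in untreated, 214 and 209.9 at day 2, 209 and 205 at day 4, and 222 and 208 at day 6. All Dox libraries lay above both untreated ones. Uqcrc2 rose at day 6 (log2 fold change 0.24 with SE 0.08, adjusted p = 0.0178 in edgeR), but was at −0.19 with total counts, and the call was lost without untreated replicate 2 (0.16) or day 6 replicate 1 (0.19). The count ratio of Cyc1 to Uqcrc2 went from 2.10 and 2.23 in untreated libraries through 1.65 and 1.59 at day 2 and 1.19 and 1.1 at day 4 to 0.834 and 0.894 at day 6. Cycs, the soluble cytochrome c that receives electrons from Cyc1 (gene 13063, chromosome 6, 50562563 to 50566569), was scarce, at 8.60 and 8.72 CPM in untreated, 9.46 and 7.63 at day 2, 9.26 and 7.12 at day 4, and 7.09 and 6.81 at day 6. Its groups overlapped up to day 4, and its log2 fold change of −0.32 at day 6 did not pass the test (adjusted p = 0.179 in edgeR).

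**Figure D2:**
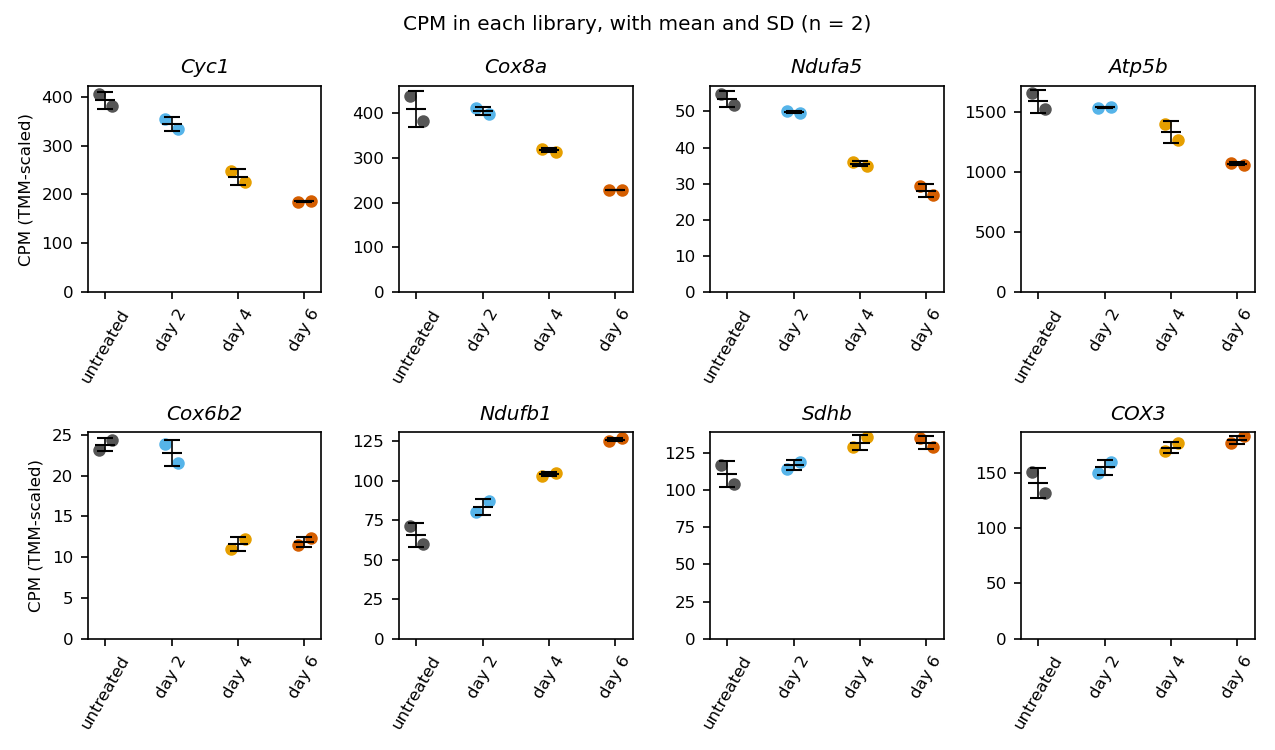
TMM-scaled CPM (y axis) of 8 members in each library (points) by day of Dox (x axis), with the mean and SD of n = 2 as bars. Cyc1, Cox8a, Ndufa5 and Atp5b step down to day 6, Cox6b2 drops by day 4 and stays there, and Ndufb1, Sdhb and COX3 are higher at day 6 than in untreated libraries; with scaling by total counts the day 6 log2 fold changes of Sdhb and COX3 are −0.18 and −0.08.

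In complex IV, 7 of 13 tested nuclear members fell at day 6, beside 31.6% of all genes, and 0 rose, beside 32.0% (edgeR). Their median log2 fold change was −0.37. At an unadjusted p under 0.05 edgeR had 8 lower and 0 higher, beside 4149 and 4118 of the 12330 genes tested. DESeq2 called 6 falling and 0 rising, beside 3018 and 3573 of all genes. The complex's most abundant nuclear genes parted ways. Cox8a, the ubiquitous form of the smallest subunit (gene 12868, chromosome 19, 7215158 to 7217616), had the highest level per length, at 751 CPM per kilobase in untreated cells. It stood at 438 and 381 CPM in untreated, 411 and 398 at day 2, 319.7 and 313 at day 4, and 229 in both libraries of day 6. Day 2 lay within the untreated range and the later groups below it, with a fall of 0.37 at day 4 (SE 0.08, adjusted p = 0.00234 in edgeR) and of 0.84 at day 6 (SE 0.08, adjusted p = 3.01e-06 in edgeR).

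Cox4i1, the ubiquitous form of the regulatory subunit 4 (gene 12857, chromosome 8, 120668225 to 120674209), stood at 441 and 385 CPM in untreated, 427 and 456 at day 2, 462 in both libraries of day 4, and 429 and 434 at day 6. The untreated libraries spanned both day 6 values, and the log2 fold change of 0.06 did not pass the test (adjusted p = 0.511 in edgeR; −0.37 with scaling by total counts). The count ratio of Cox8a to Cox4i1 was 0.993 and 0.989 in untreated libraries, 0.692 and 0.678 at day 4, and 0.534 and 0.527 at day 6. Cox5a, which pairs with Cox4i1 early in assembly, was also near its untreated level at day 6 (log2 fold change 0.07, adjusted p = 0.438 in edgeR; −0.36 with total counts).

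Several complex IV subunits have tissue-restricted copies, which are given beside the ubiquitous ones. Cox6b2, known from testis (gene 333182, chromosome 7, 4751792 to 4753094), stood at 23.2 and 24.4 CPM in untreated, 23.9 and 21.6 at day 2, 11 and 12.2 at day 4, and 11.5 and 12.3 at day 6. It had dropped by day 4 (log2 fold change −1.04 with SE 0.12, adjusted p = 3.01e-05 in edgeR) and stood at the same level at day 6 (−1.0, adjusted p = 2.68e-05 in edgeR), with 0.04 between the last groups (adjusted p = 0.853 in edgeR). Its ubiquitous counterpart Cox6b1 (gene 110323) fell later and less, from 227 and 201 CPM in untreated libraries to at most 170.1 at day 6 (log2 fold change −0.35 with SE 0.08, adjusted p = 0.00277 in edgeR), and its −0.10 at day 4 did not pass the test.

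Cox6a2, the heart and skeletal muscle form of subunit 6a (gene 12862, chromosome 7, 128205435 to 128206366), had only 30 and 33 counts in untreated libraries, 14 and 47 at day 2, 2 and 4 at day 4, and 2 and 8 at day 6. Day 4 and day 6 libraries lay below all earlier ones, and day 2 straddled the untreated values. Untreated CPM were 9.43 times those of day 4 (95% exact counting interval 4.10 to 26.7) and 4.83 times those of day 6 (2.46 to 10.6), intervals that cover counting error only. The gene fell in edgeR at day 4 (adjusted p = 0.00219) and at day 6 (adjusted p = 0.00713), and without day 6 replicate 1 the day 6 call was lost, with a log2 fold change of −1.61 instead of −2.25. Cox8b, the muscle form of subunit 8, was not tested, and had 9 and 8 counts in untreated libraries, 1 and 6 at day 2, 0 and 0 at day 4, and 0 and 1 at day 6. It was at least 5.09-fold lower at day 4, taking 3 counts in the whole group as the floor (the exact counting interval starts at 3.71), and its untreated level was 13 times that of day 6 (counting interval 2.04 to 544).

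Skeletal muscle markers were also lower at day 4 and day 6. Of 13 marker genes, 6 were in the tables (Myod1, Myl1, Acta1, Actn2, Tnnc2, Ckm and Myh8 were not analysed here), and their summed level was 133 and 173 CPM in untreated libraries, 48.1 and 75.5 at day 2, 7.35 and 9.26 at day 4, and 9.01 and 7.46 at day 6. All 6 fell at day 4, and all but Des (Myog, Mylpf, Tnnt3, Tpm2 and Myh3) had already fallen at day 2. Cox6a2 did not pass the test at day 2 (log2 fold change 0.17, adjusted p = 0.869 in edgeR). Its untreated CPM were 0.864 times those of day 2 (counting interval 0.598 to 1.25). For Cox8b, which was not tested, they were 2.03 times those of day 2 (0.801 to 5.8). The part of these markers in the fall of Cox6a2 and Cox8b was not tested. Cox6a1, the ubiquitous form of subunit 6a, stood at 276 ± 28.7 CPM without Dox and 263 ± 8.18 at day 6 (SD, n = 2), a log2 fold change of −0.07 (adjusted p = 0.447 in edgeR).

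Cox7a2, the form of subunit 7a found in most tissues (gene 12866, chromosome 9, 79755241 to 79771422), fell late, from 18.2 ± 0.616 CPM in untreated cells and 16.8 ± 0.982 at day 4 to 11.3 ± 0.918 at day 6 (SD, n = 2), a log2 fold change of −0.68 (SE 0.13, adjusted p = 0.000946 in edgeR). Cox7a2l, its relative that joins complexes III and IV into supercomplexes, stood at 116 ± 7.05 CPM without Dox and 132 ± 7.64 at day 6 and missed the threshold (log2 fold change 0.18, adjusted p = 0.111 in edgeR; −0.25 with total counts). Cox5b, Cox7b and Cox6b1 also fell at day 6, by 0.37, 0.48 and 0.35, and Cox6c and Cox7c did not pass the test at −0.14 and −0.56.

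Complex V had 8 of 17 nuclear members falling at day 6, beside 31.6% of all genes, and 0 rising, beside 32.0% (edgeR). Their median log2 fold change was −0.41. An unadjusted p under 0.05 in edgeR and DESeq2 both gave 8 and 0 as well. Atp5b, the catalytic beta subunit of the F1 head (gene 11947, chromosome 10, 128083307 to 128090388), had the highest level per length of all nuclear members, at 848 CPM per kilobase in untreated cells. It stood at 1661 and 1526 CPM in untreated, 1539.6 and 1545 at day 2, 1406 and 1274 at day 4, and 1082 and 1062 at day 6. The day 6 libraries lay below all others (log2 fold change −0.57 with SE 0.09, adjusted p = 0.000151 in edgeR). The fall of 0.25 at day 4 (adjusted p = 0.0342 in edgeR) was lost without untreated replicate 1 (−0.18), day 4 replicate 2 (−0.19) or either day 6 replicate (−0.26). Its partner in the head, Atp5a1, fell by 0.40 at day 6, and Atp5d, a subunit of the rotor stalk, by 0.49, whereas Atp5c1 and Atp5e, the other F1 members, did not pass the test at −0.09 and −0.02. For Atp5c1 the pseudogene Atp5c1-ps held 152 and 154 counts in untreated libraries.

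The membrane ring of ATP synthase is built from 1 protein that 3 genes encode, Atp5g1, Atp5g2 and Atp5g3. Atp5g3 (gene 228033) was by far the most abundant per length, at 478 CPM per kilobase against 24.8 for Atp5g1 and 3.92 for Atp5g2 in untreated cells. Atp5g1 (gene 11951, chromosome 11, 96072793 to 96075694) stood at 22.6 and 20.5 CPM in untreated, 21.4 and 18.2 at day 2, 15.8 and 14.4 at day 4, and 12.3 and 13.1 at day 6. It was lower at day 4 and day 6 than in any earlier library, with falls of 0.51 (SE 0.13, adjusted p = 0.00646 in edgeR) and 0.76 (SE 0.13, adjusted p = 0.000386 in edgeR). Atp5g3 fell from 324 ± 37.1 to 233 ± 3.37 CPM at day 6 (SD, n = 2), a log2 fold change of −0.48 (SE 0.08, adjusted p = 0.000444 in edgeR). Atp5g2 was at 2.47 and 2.60 CPM in untreated and 1.69 and 1.62 at day 6, and did not pass the test (log2 fold change −0.61, adjusted p = 0.219 in edgeR).

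The mtDNA genes stood nearer to their untreated levels than most nuclear members. With scaling by total counts all 13 were below untreated at day 6, with log2 fold changes from −0.74 (ND2) to −0.08 (COX3). In genome order, their untreated levels per length were 2447 CPM per kilobase for ND1, 1309 for ND2, 5257 for COX1, 143 for COX2, 72.4 for ATP8, 271 for ATP6, 179.9 for COX3, 67.2 for ND3, 31.5 for ND4L, 890.1 for ND4, 1159 for ND5, 1177 for ND6 and 3054 for CYTB. COX1, the catalytic subunit of complex IV, CYTB, the cytochrome b of complex III, and ND1 were the 3 highest of all 100 members. The 6 neighbouring genes from COX2 to ND4L, between positions 7013 and 10173, were low together, although the heavy strand is known to be transcribed as 1 long precursor. Near-identical nuclear copies of stretches of mtDNA are known, reads that match several places may not be counted, and their part in these low levels was not tested. ATP8 and ATP6 overlap by 43 bases (chrMT:7927-7969, plus strand), shown because counts in it cannot be assigned to either gene alone.
ATP8 and ATP6 overlap: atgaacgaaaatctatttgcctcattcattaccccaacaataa
ND4L and ND4 share 7 bases, and ND5 and ND6 share 14 on opposite strands. No source used here says whether the counting used strand, and reads of ND5 and ND6 in their shared stretch cannot be told apart.

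COX3, a core subunit of complex IV without metal centres (gene 17710, MT, 8607 to 9390), was the single mtDNA gene called higher at day 6. It stood at 150.5 and 132 CPM in untreated, 150.1 and 159.6 at day 2, 169.6 and 177 at day 4, and 177 and 183 at day 6. Day 4 and day 6 libraries lay above all earlier ones. It rose by 0.30 at day 4 (SE 0.08, adjusted p = 0.0105 in edgeR) and by 0.35 at day 6 (SE 0.08, adjusted p = 0.00273 in edgeR), but was at 0.05 and −0.08 with scaling by total counts, and the day 4 call was lost without untreated replicate 2 (0.20) or day 4 replicate 2 (0.26). COX2, which takes electrons from cytochrome c (gene 17709, MT, 7013 to 7696), rose at day 4 from 98.7 and 97.2 CPM to 117 and 113 (log2 fold change 0.23 with SE 0.07, adjusted p = 0.0197 in edgeR; −0.02 with total counts). That call was lost without either day 4 replicate (0.21 and 0.25) and with DESeq2, and at day 6 COX2 was at 104 and 106 CPM (log2 fold change 0.10, adjusted p = 0.232 in edgeR; −0.33 with total counts).

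COX1 (gene 17708, MT, 5328 to 6872) took 0.671% to 0.9569% of all counts in a library. It stood at 8131 and 8112 CPM in untreated, 7167 and 8439 at day 2, 9268 and 9439 at day 4, and 9242 and 9385 at day 6. Day 4 and day 6 lay above the earlier libraries, but the log2 fold changes of 0.20 at both days did not pass edgeR's test (adjusted p = 0.128 and 0.117), while DESeq2 called both; with total counts they were at −0.05 and −0.24. In day 2 replicate 1, the library with high mitochondrial ribosomal RNA, COX1 was lowest.

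Among the complex I genes of mtDNA, ND2 (gene 17717, MT, 3914 to 4951) fell at day 6. It stood at 1413 and 1305 CPM in untreated, 1267 and 1281 at day 2, 1300.5 and 1267 at day 4, and 1085 and 1106 at day 6, where both libraries lay below all others (log2 fold change −0.31 with SE 0.08, adjusted p = 0.00586 in edgeR). Without day 6 replicate 1 the call was lost at a log2 fold change of −0.30. ND1 had 2525 and 2159 CPM in untreated and 2025 and 1995 at day 6 (log2 fold change −0.22, adjusted p = 0.0906 in edgeR), and DESeq2 called it. ND4, ND5 and ND6, further along the genome, were at −0.10, −0.14 and −0.15 at day 6 and did not pass the test, and ND3 (0.34; −0.09 with total counts) and ND4L (−0.04) did not either. ND6, the only protein-coding gene of the light strand, fell from day 4 to day 6 (log2 fold change −0.27, adjusted p = 0.0313 in edgeR). CYTB (gene 17711) stood at 3509.5 and 3479 CPM in untreated and 3114 and 3184 at day 6 (log2 fold change −0.15, adjusted p = 0.159 in edgeR). The complex V genes ATP6 and ATP8 were at −0.08 and 0.05 at day 6 and did not pass the test, and ATP8 was at −0.38 with total counts.

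**Figure D3:**
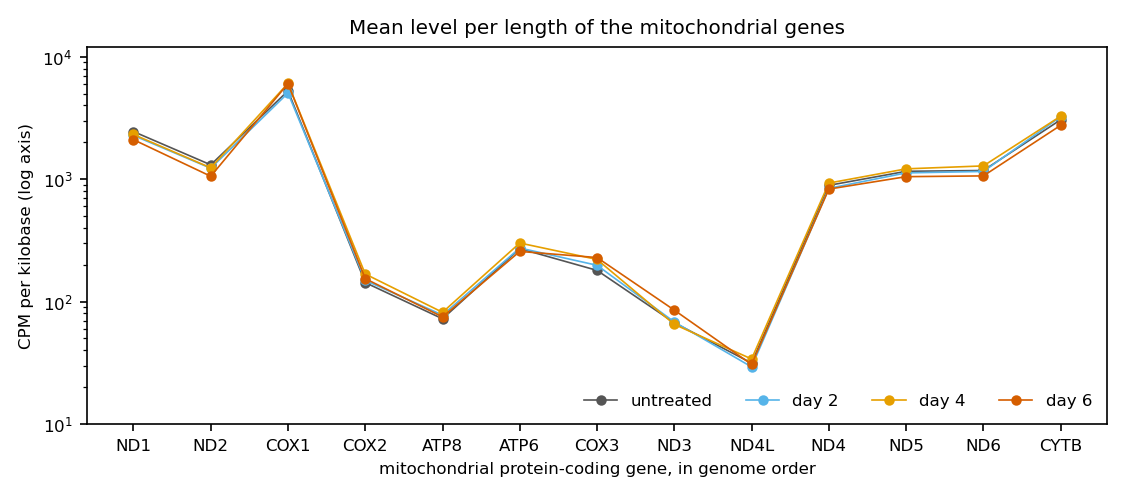
Mean level of the 13 mtDNA protein-coding genes (y axis, CPM per kilobase, log axis; n = 2 libraries per group) in genome order (x axis), with a line per group. Under TMM scaling the lines lie close together from untreated to day 6. With scaling by total counts the day 6 log2 fold changes run from −0.74 (ND2) to −0.08 (COX3). The 6 genes from COX2 to ND4L lie below their neighbours in every group, from 31.5 to 271 CPM per kilobase in untreated cells.

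The balance between the genomes was measured within each library as mtDNA counts over nuclear counts of the members, a ratio that no library scaling alters. It was 1.61 and 1.76 in untreated libraries, 1.54 and 1.72 at day 2, 1.90 and 2.02 at day 4, and 2.03 and 2.05 at day 6. Every day 4 and day 6 library lay above every untreated and day 2 library. The day 6 mean was 1.21 times the untreated mean. An exact permutation test over all 105 ways to split the 8 libraries into 4 pairs gave p = 0.0381 for a difference among the 4 groups, and 0.0635 after adjustment over the 5 ratios tested. The smallest p such a test can give is 0.00952, and 2 libraries against 2 cannot go below 0.333. All 5 tests were added after the data were seen. If the 2 libraries of a group are technical replicates, their likeness alone can give a small p. The tests then cannot tell a difference between days from a difference between single samples. Without COX1 the ratio was 0.959 and 1.03 in untreated libraries, 0.930 and 1.01 at day 2, 1.06 and 1.14 at day 4, and 1.08 in both day 6 libraries. Its highest value was thus in a day 4 library.

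By complex, the ratio did not move alike. In complex I it was 2.35 and 2.48 in untreated libraries and 2.42 and 2.38 at day 6, which overlap (exact permutation p over the 4 groups 0.114, adjusted 0.114). In complex III, CYTB over its nuclear partners went from 2.41 and 2.64 in untreated libraries through 2.65 and 2.78 at day 2 and 3.03 and 3.20 at day 4, its highest, to 2.87 and 2.97 at day 6 (exact permutation p = 0.00952, the smallest possible, adjusted 0.0476). Without Cyc1 the complex III ratio was 3.34 and 3.70 in untreated, 3.58 and 3.68 at day 2, 3.8 and 3.95 at day 4, and 3.46 and 3.60 at day 6. Its day 6 libraries lay within the untreated range and its day 4 libraries above every other library. In complex IV the ratio went from 3.99 and 4.52 through 3.65 and 4.26 at day 2 and 4.95 and 5.15 at day 4 to 5.64 and 5.75 at day 6, the largest of the 4 changes with 1.34 times the untreated mean (exact permutation p = 0.0286, adjusted 0.0635). Without COX1 the complex IV ratio was 0.119 and 0.124 in untreated and 0.167 and 0.171 at day 6. In complex V the ratio went from 0.0459 and 0.0431 to 0.0543 and 0.0562 (exact permutation p = 0.0571, adjusted 0.0714). Without Atp5b and Atp5a1 it was 0.119 and 0.115 in untreated, 0.134 and 0.138 at day 4, its highest, and 0.127 and 0.13 at day 6. Complex II has no mtDNA gene. No test compared the complexes with each other.

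**Figure D4:**
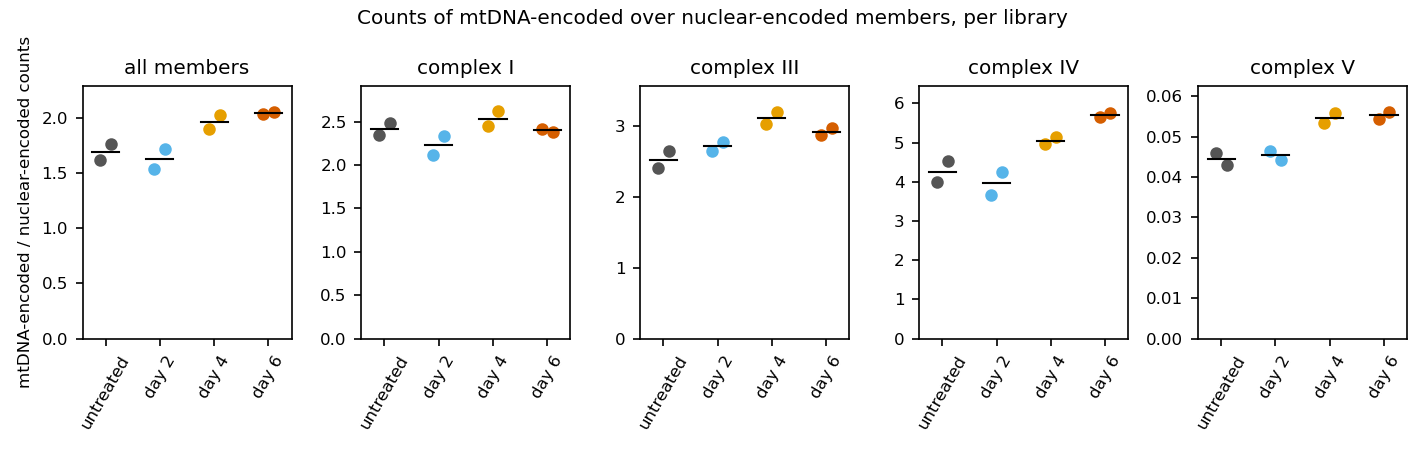
Counts of mtDNA-encoded over nuclear-encoded members (y axis) in each library (points; bars are means of n = 2) by day of Dox (x axis), for all members and for each complex that both genomes encode. Over all members the day 4 and day 6 libraries, at 1.90 to 2.05, lie above the untreated and day 2 libraries, at 1.54 to 1.76; in complex I the day 6 and untreated libraries overlap.

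Between successive Dox groups, 12 members fell from day 2 to day 4, beside 15.9% of all genes, and 1 rose, beside 21.7% (edgeR). Shares of all genes were not counted for fits without a library. The rising gene was Ndufb1, and the falling genes, led by Cox6a2, Cox6b2, Ndufab1 and Cyc1, were all nuclear. Their number was 7 without day 4 replicate 1, 20 without untreated replicate 1 and 21 without untreated replicate 2. From day 4 to day 6, 25 members fell, beside 14.0% of all genes, and 2 rose, beside 15.9%: Ndufb1 and Ndufv3. Of the 25, 24 were nuclear and ND6 was the other. Sdhaf4 had the largest of these falls (log2 fold change −0.83, adjusted p = 0.00305 in edgeR), before Ndufab1 (−0.79), Cox7a2 (−0.56) and Ndufc1 (−0.49), and Cox8a fell by 0.47. The day 4 to day 6 count fell to 4 to 13 when a day 4 or day 6 library was left out: 6 and 13 without replicates 1 and 2 of day 4, and 5 and 4 without replicates 1 and 2 of day 6.

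Genes that serve the chain were counted from lists of textbook knowledge, whose counts at day 6 stand beside 31.6% of all genes falling and 32.0% rising, or 53.9% and 16.9% with total counts. Of 40 assembly factors tested, 18 fell and 5 rose at day 6, with a median log2 fold change of −0.32 (33 and 1 with total counts). Lyrm7, a chaperone of the Rieske protein, fell from 2.30 and 3.86 CPM to 0.45 and 0.756 (log2 fold change −2.32, adjusted p = 0.00112 in edgeR), and Ndufaf4, a complex I assembly factor, from 25.8 and 31.0 to 8.22 and 5.73 CPM (log2 fold change −2.03, adjusted p = 1.24e-06 in edgeR). Ndufaf7, another complex I assembly factor, rose by 0.90 (adjusted p = 4.93e-05 in edgeR), and Surf1, a complex IV assembly factor, by 0.58 (adjusted p = 0.00238 in edgeR), and scaled by total counts they were at 0.46 and 0.15. Of 27 genes of mtDNA upkeep and transcription, 12 fell and 0 rose, with a median of −0.36 (24 and 0 with total counts); edgeR had 12 lower and 1 higher at an unadjusted p under 0.05, and DESeq2 called 10 falling and 0 rising. Top1mt, the mitochondrial topoisomerase, fell by 1.67 (adjusted p = 0.000324 in edgeR), Prorp, which trims mitochondrial tRNA precursors, by 1.38 (adjusted p = 1.02e-05 in edgeR), and Twnk, the mtDNA helicase, was at −1.36. Transcripts of Polrmt, the mitochondrial RNA polymerase, went from 28.5 and 31.8 CPM to 14.1 and 17.2, and those of Tfam, which packages mtDNA, were at 54.6 and 54.5 and then 48.5 and 49.8 (log2 fold change −0.15, adjusted p = 0.15 in edgeR). Twnk, Polrmt and Tfam were named after their values were seen.

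In the tricarboxylic acid cycle, which feeds complexes I and II, 11 of 18 genes fell and 3 rose, with a median of −0.32 (15 and 0 with total counts). Idh3a, a catalytic subunit of NAD-dependent isocitrate dehydrogenase, fell from 125 and 127 to 50.3 and 47.2 CPM (log2 fold change −1.37, adjusted p = 3.51e-07 in edgeR), and Suclg2, of succinyl-CoA ligase, by 1.33 (adjusted p = 7.17e-06 in edgeR). Dlst, of the 2-oxoglutarate dehydrogenase complex, rose by 0.33 (adjusted p = 0.00112 in edgeR; −0.10 with total counts), and Pcx, pyruvate carboxylase, was at 3.15 and 2.10 CPM in untreated and 4.84 and 4.21 at day 6 (log2 fold change 0.79, adjusted p = 0.05 in edgeR, just under the threshold). Of 14 carriers, uncouplers and the ATPase inhibitor, 5 rose and 3 fell, with a median of −0.03, whereas with total counts 1 rose and 8 fell. Ucp2, an uncoupling protein family member of the inner membrane, rose from 381 and 321 CPM in untreated libraries to 509.6 and 534 at day 2, 1399.6 and 1490.2 at day 4 and 1647 and 1654 at day 6 (day 6 log2 fold change 2.23 with SE 0.10, adjusted p = 6.21e-09 in edgeR). Slc25a11, the 2-oxoglutarate carrier, rose by 0.59 (0.16 with total counts), and Slc25a1, the citrate carrier, and Vdac1, the outer membrane channel, fell by 0.72 and 0.57.

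Of 14 regulators of respiratory genes, 5 fell and 3 rose, with a median of −0.03 (9 and 0 with total counts). Ppargc1b, a coactivator of mitochondrial biogenesis, went from 16.5 and 25.4 CPM in untreated libraries to 5.29 and 4.21 at day 6 (log2 fold change −2.14, adjusted p = 6.63e-06 in edgeR). Myc, a growth regulator that drives many mitochondrial genes, went from 110 and 230.4 to 43.7 and 40.2 CPM (log2 fold change −2.02, adjusted p = 0.00024 in edgeR), with a wide gap between the untreated libraries. Esrra, an orphan nuclear receptor, rose by 0.65 (adjusted p = 0.000233 in edgeR), and Nfe2l2, the oxidative stress factor, by 0.43 (adjusted p = 0.000628 in edgeR), and with total counts they were at 0.22 and −0.01. Nrf1 itself was at 0.18 (adjusted p = 0.062 in edgeR) and Gabpa, the DNA-binding subunit of GABP, rose by 0.24 (adjusted p = 0.0228 in edgeR; −0.26 and −0.19 with total counts), both named after their values were seen.

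**Figure D5:**
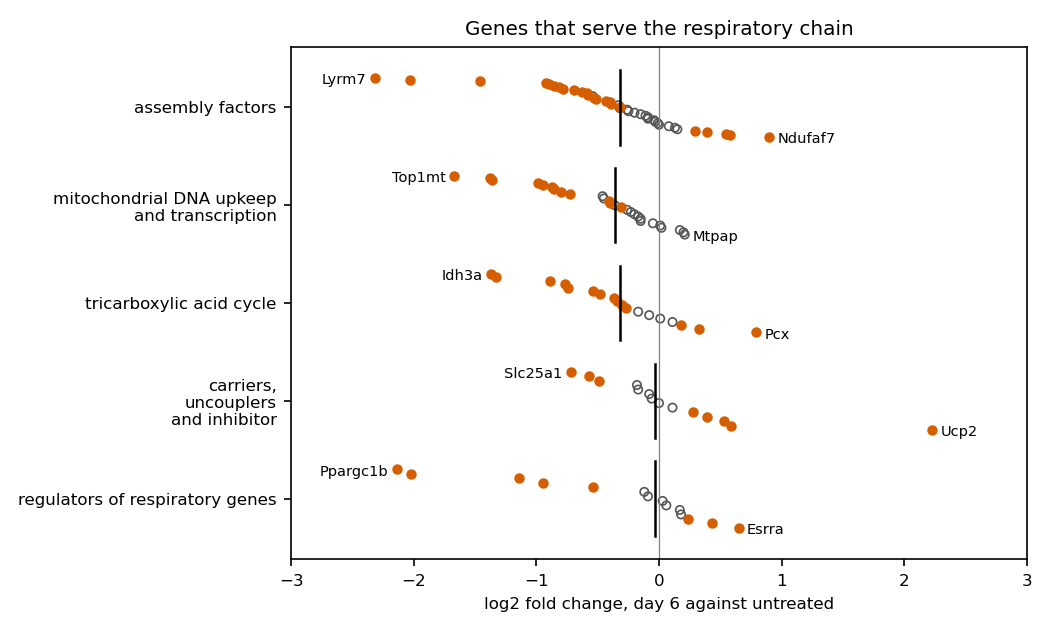
Log2 fold change of day 6 against untreated (x axis) for genes of 5 related lists (y axis, each point a gene in order of its fold change); filled points passed edgeR's test, open points did not, and vertical bars are list medians. The first 3 lists have medians of −0.32 to −0.36 and the last 2 of −0.03, and Ucp2 lies far to the right at 2.23.

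Markers of myeloid maturation were higher at day 6, where the nuclear members were lowest in sum. The 9 mature neutrophil genes summed to 3939 and 2641 CPM in untreated libraries, 7113 and 4289.7 at day 2, 11068 and 16411 at day 4, and 58719.5 and 71851 at day 6. Of these genes, Camp alone was called at day 2 (log2 fold change 1.02, adjusted p = 0.0441 in edgeR). The 8 monocyte and macrophage genes summed to 6088 and 5487 CPM in untreated and 27879.6 and 28344 at day 6. Of the 9 genes of the leukaemic myeloid list, Elane, Ctsg, Cebpa and Kit fell at day 6, Ptprc, Csf3r, Itgam and Csf1r rose, and Mpo did not pass the test. The sum of this list, led in untreated libraries by Elane and Ctsg, was 14958 and 13300.4 CPM in untreated and 7312 and 7392 at day 6. The part of these lists in the levels of the respiratory chain was not tested.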

How the data were processed

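RNA of sorted bone marrow cells was sequenced in 8 libraries of 4 groups. Per the file headers, the authors deposited a whole-number count per Entrez gene ID and a gene length for each library. Tools listed in the submitters' processing notes are featureCounts, limma 3.22.0, edgeR 3.8.2 and CASAVA 1.8.2, with the build mm10. Aligner and strandedness were not given in the sources used here. The third highest of a gene's 8 CPM values was never under 0.501, so scarce genes can be missing. Of 12830 gene IDs, 12555 matched RefSeq (GRCm38.p6) by ID and 7 by synonym, and the other 268 hold 2.22% of counts. Total counts per library ran from 9262047 to 11213292.

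All 8 libraries entered 1 fit in R 4.3.3 with edgeR 4.0.16 (filterByExpr, which removed 500 genes, TMM, group means, quasi-likelihood test, Benjamini-Hochberg over 12330 genes, threshold 0.05). The fit had 4 residual and 7.08 prior degrees of freedom and a biological coefficient of variation of 8.34%. The script was tested on simulated data. Values are mean ± SD of n = 2. Levels per length are CPM per kilobase of deposited gene length, and they ignore differences between transcripts of a gene.

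Named were all mtDNA genes, the called members with the largest rise or fall and the most abundant member of each class, fixed isoform groups, members called against their complex's majority at day 6, and up to 2 genes per direction of each related list. Other names were chosen after their values were seen. Members and lists were chosen with earlier results of these data known. The tests of the mtDNA to nuclear ratio were added after the data were seen. Alternatives were other scalings (RLE, total counts, TMM over other genes), no filter, a minimum change of 1.5-fold, only the 2 groups compared, a replicate block, DESeq2 1.42.0 and leaving out each library.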

Additional observations from a re-analysis of the deposited data

Results flagged for a closer look

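The 2 mitochondrial ribosomal RNA genes, which are no members, had counts in every library and stood out in day 2 replicate 1. There mt-Rnr1 took 0.109% of all counts, against 0.0147% to 0.0321% in the other 7 libraries, and mt-Rnr2 took 0.2073%, against 0.0375% to 0.0621%. The range in untreated libraries was 0.0179% to 0.0181% for mt-Rnr1 and 0.0432% to 0.0436% for mt-Rnr2. In the same library the mtDNA protein-coding members took 1.6998% of counts, against 2.2724% in day 2 replicate 2, and the mtDNA to nuclear ratio of the members was 1.54 against 1.72. Without this library, 0 members were called higher and 0 lower at day 2 (edgeR), instead of 1 and 0.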

How the results depend on the processing

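Over the named members, 1824 values were recomputed: 1614 kept their direction and side of the threshold, 83 kept the direction but lost the call, 28 gained a call, 9 changed sign and were called before or after, and 90 changed sign without being called before or after. Of the 90, 50 came from leaving out a library and 35 from scaling by total counts, among them at day 6 ATP8 (−0.38), COX1 (−0.24), Cox7a2l (−0.25) and ND3 (−0.09). All 9 came from scaling by total counts: COX2 at day 4 (−0.02), and at day 6 COX2 (−0.33), COX3 (−0.08), Cox4i1 (−0.37), Ndufb7 (−0.20), Ndufs4 (−0.24), Ndufs8 (−0.11), Sdhb (−0.18) and Uqcrc2 (−0.19). That scaling shifts all genes, so the members' place among them hardly moved. Under it 0 members rose at day 2, 1 rose and 43 fell at day 4, 1 rose and 86 fell at day 6, 0 rose from day 2 to day 4, and 0 rose and 38 fell from day 4 to day 6.

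A minimum change of 1.5-fold left 0 rising at day 2, 0 rising and 2 falling at day 4, 1 and 8 at day 6, 0 and 2 from day 2 to day 4, and 0 and 0 from day 4 to day 6. Fitting only the 2 groups gave 0 rising at day 2 and 2 at day 4. DESeq2 gave 10 falling at day 4 (16 with edgeR) and 2 rising from day 2 to day 4 (1 with edgeR). Leaving out each library in turn, the number rising ran from 0 to 4 at day 2, 1 to 15 at day 4, 3 to 10 at day 6, 0 to 3 from day 2 to day 4 and 0 to 2 from day 4 to day 6. The number falling ran from 0 to 0, 8 to 25, 32 to 52, 7 to 21 and 4 to 35 in the same order. RLE scaling, TMM over other genes and no filter kept every count within 1.5 times. The causes of these shifts were not tested. Shares of all genes were not counted for fits without a library, with the minimum change or with the replicate block.

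Same-numbered libraries did not deviate together in a consistent way (correlations of −0.13 to 0.209), so the numbers were not taken as pairs. With the replicate block, 0 members rose at day 2, 5 rose and 13 fell at day 4, 7 rose and 42 fell at day 6, 1 rose and 11 fell from day 2 to day 4, and 2 rose and 24 fell from day 4 to day 6. Depth limits the scarce members: 13 nuclear members lay under 10 CPM in untreated cells, and Cox8b could not be tested.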

Other observations

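Left-out pseudogene entries had counts of the same order as some members. Uqcrh-ps1 held 210 and 180 counts in untreated libraries and 129 and 145 at day 6, and Ndufs6b held 309 and 252 and then 137 and 210. These counts are not corrected for depth. Whether reads of Uqcrh and Ndufs6 were assigned to these copies was not tested.

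Within mtDNA, the count ratio of ND1 to COX1 was 0.311 and 0.266 in untreated libraries, 0.282 and 0.277 at day 2, 0.234 and 0.241 at day 4, and 0.219 and 0.213 at day 6, so the day 4 and day 6 libraries lay below all earlier ones. The 6 neighbouring genes from COX2 to ND4L summed to 501 and 441 CPM in untreated, 493 and 489 at day 2, 541 and 543 at day 4, and 509 and 519 at day 6. The other 7 mtDNA genes summed to 19528 and 19009 CPM in untreated and 19103 and 19248 at day 6.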
